A study of Mus musculus with 15 samples.

Results

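The CCAAT/enhancer-binding proteins (C/EBPs) measured here were the 4 genes *Cebpa*, *Cebpb*, *Cebpd* and *Cebpg* in Mouse Embryonic Fibroblasts (MEFs). Their probes were found by name: every non-control probe whose identifier is a RefSeq transcript of one of these genes was taken, without regard to its brightness. This gave 5 of the 56605 probes of the array and 4 of its 23462 named genes. *Cebpa* (NM_007678), *Cebpb* (NM_001287738) and *Cebpd* (NM_007679) had 1 probe each and *Cebpg* (NM_009884) had 2. All 5 were well above background on all 15 arrays and were among the 29334 probes tested.

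C/EBPs are basic leucine zipper transcription factors that bind DNA as dimers with each other. In fat cell formation, *Cebpb* and *Cebpd* act early and are followed by *Cebpa*, which together with PPARγ drives the genes of mature adipocytes. In inflammation, *Cebpb* and *Cebpd* are known to act beside NF-κB and STAT3 on acute-phase genes, while *Cebpg* lacks an activation domain of its own and pairs with other bZIP proteins.

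The study set proinflammatory against profibrotic cytokines in cultured fibroblasts. The cells were an established 3T3 line from Balb/c embryos, sold as 1 clone, so no group holds cells of other origin. RNA of 5 groups of 3 cultures was hybridized to 1-color microarrays. One group was left untreated as the control. The others received TNFα at 10 ng/ml, TGFß1 at 5 ng/ml, IL-1β at 1 ng/ml, or 20 ng/ml of IL-6 together with 25 ng/ml of its soluble receptor sIL-6Rα, a treatment called IL-6 below. The labels give 24 or 72 h of culture. The study's text places the arrays of the control, TNFα and TGFß1 groups at 24 h, and the time of the IL-1β and IL-6 groups is not given in the sources used here. The study describes 3 independent experiments, but nothing says which arrays share one, so that the p-values measure the spread between these cultures. Arrays are called by group and label number.

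A level here is the log2 brightness of a probe minus the 75th percentile of its array, so that 0 is the brightness of the 75th percentile. Levels of different probes were not set against each other, since brightness depends on the probe. To be called, a probe needed a q-value under 0.05 and a fold-change of 1.5 or more in either direction (limma, two-sided, Benjamini-Hochberg over all probes tested). The arrays had a 75th percentile of 501 to 674 in brightness and 48.3% to 54.9% of probes above background, and no spot was saturated. They lay on 2 slides with every group on both. The label numbers fall into 3 runs (1 to 5, 6 to 10 and 11 to 15) of 1 array per group, and arrays of a run deviated together once the slide was removed. All 11 fibroblast markers were above background on all arrays, and with TNFα 1 of them was called higher and 3 lower, with TGFß1 2 higher and 3 lower. Among all probes tested, 4.15% were called higher and 6.01% lower with TNFα, and 7.26% and 10.7% with TGFß1. Of 8 leukocyte markers, 4 (*Csf1r*, *Itgam*, *Cd3e* and *Cd68*) were above background on all arrays and 3 (*Ptprc*, *Adgre1* and *Lyz2*) on none, and of 4 endothelial markers *Pecam1* was on all and *Cdh5*, *Kdr* and *Tek* on none. None of these was called by limma against control, and 0 had an unadjusted p under 0.05. Of 6 epithelial markers, *Cdh1* and *Krt5* were above background on none, and *Krt8* and *Krt18*, keratins of simple epithelia, on all TGFß1 arrays. *Krt18* was above background on 10 arrays in all, 2 of them controls, and was not called against control. *Krt8* was above background on no control array and was called at least 3.33-fold higher with TGFß1 (q = 0.0174 with limma), a call lost without control 6 or TGFß1 2. TGFß1 was the only group with *Krt8* above background on every array, and the probe was tested for that reason alone. The call is therefore no independent support for a rise. The mean level of the 6 epithelial markers was -6.01 to -4.78 with TGFß1 and -6.58 to -5.80 in controls, and its part in the C/EBP values with TGFß1 was not tested. RNA came from whole cultures, so that fewer cells of a kind and less RNA per cell cannot be told apart.

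The promoters of *Cebpa* and *Cebpb*, called lower with TGFß1, and of *Cebpg*, which was not called, are shown as sequence. That of *Cebpd*, also called lower, was not at hand. The letters TATAAA were searched for after the promoters were seen, and no link between motifs and calls was tested. RefSeq sequences of 250 bases before to 50 after the start of the gene, on GRCm38.p6, were at hand for 3 of the 4 genes: *Cebpa* at chr7:35119043-35119342 (plus strand), *Cebpb* at chr2:167688665-167688964 (plus strand) and *Cebpg* at chr7:35056517-35056816 (minus strand). They are printed 5′ to 3′ along the gene. Capitals mark the letters TATAAA, those of the TATA box, in *Cebpa*, before the start of the gene, and in *Cebpb*, after that start. In *Cebpb* this is a match of letters only. In *Cebpg* they mark a CCAAT box, read on the other strand.
Cebpa: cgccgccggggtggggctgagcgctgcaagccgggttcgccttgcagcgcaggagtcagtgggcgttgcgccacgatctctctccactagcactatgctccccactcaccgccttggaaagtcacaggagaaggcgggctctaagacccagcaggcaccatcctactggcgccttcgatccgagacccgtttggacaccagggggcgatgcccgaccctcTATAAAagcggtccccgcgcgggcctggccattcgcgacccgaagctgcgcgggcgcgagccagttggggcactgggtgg
Cebpb: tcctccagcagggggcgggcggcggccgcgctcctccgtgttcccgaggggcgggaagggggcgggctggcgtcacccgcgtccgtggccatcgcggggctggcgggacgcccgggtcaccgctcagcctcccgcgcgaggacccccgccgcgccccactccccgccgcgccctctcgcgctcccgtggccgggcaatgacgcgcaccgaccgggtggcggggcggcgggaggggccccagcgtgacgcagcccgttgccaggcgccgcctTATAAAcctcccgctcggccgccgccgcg
Cebpg: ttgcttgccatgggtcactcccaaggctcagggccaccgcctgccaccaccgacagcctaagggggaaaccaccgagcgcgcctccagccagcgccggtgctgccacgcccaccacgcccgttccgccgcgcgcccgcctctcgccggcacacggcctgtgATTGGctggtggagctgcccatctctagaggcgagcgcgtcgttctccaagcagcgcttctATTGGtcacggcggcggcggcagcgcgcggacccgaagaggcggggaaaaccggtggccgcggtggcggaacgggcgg

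The letters TATAAA began at base -30 in *Cebpa* and at base 22 in *Cebpb*, and the CCAAT boxes of *Cebpg* at -89 and -28. The first base of the gene is base 1, and no base is numbered 0. The letters TATAAA were not in the *Cebpg* window, and no CCAAT box was in the others. Of 32851 promoters of the same length, 13.6% hold TATAAA and 37.4% hold CCAAT on either strand. None of the 3 windows held the C/EBP palindrome TTGCGCAA (in 0.183% of promoters), its looser form TTNNGNAA (40.7%), the STAT motif TTCNNNGAA (8.3%) or its stricter form TTCCNGGAA (1.15%), the cyclic AMP response element TGACGTCA (1.79%) or the NF-κB consensus (8.46%). The palindrome is contained in the looser C/EBP form and the strict STAT motif in the other one. No match says only that these letters are not in this window. The G and C bases made up 67.3% of the *Cebpa* window, 80.7% of that of *Cebpb* and 71.7% of that of *Cebpg*.

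*Cebpa* was lower in MEFs treated by TNFα or TGFß1 than in controls, *Cebpd* was lower with these same cytokines and higher with IL-1β or IL-6, *Cebpb* was lower with TGFß1, and no comparison of *Cebpg* was called. With TNFα, 2 of the 4 genes were called, both lower, where 6.01% of all probes tested were called lower and 10.2% in either direction. With TGFß1, 3 of 4 were called, all lower, against 10.7% of probes called lower and 18% in either direction. Higher calls made up 4.15% of probes with TNFα and 7.26% with TGFß1. With IL-1β, 1 of 4 was called, higher, against 0.252% of probes in either direction and 0.245% higher. With IL-6, 1 of 4 was called, higher, against 0.0682% of probes, all of them higher. All 4 comparisons share the 3 control arrays.

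**Figure D1:**
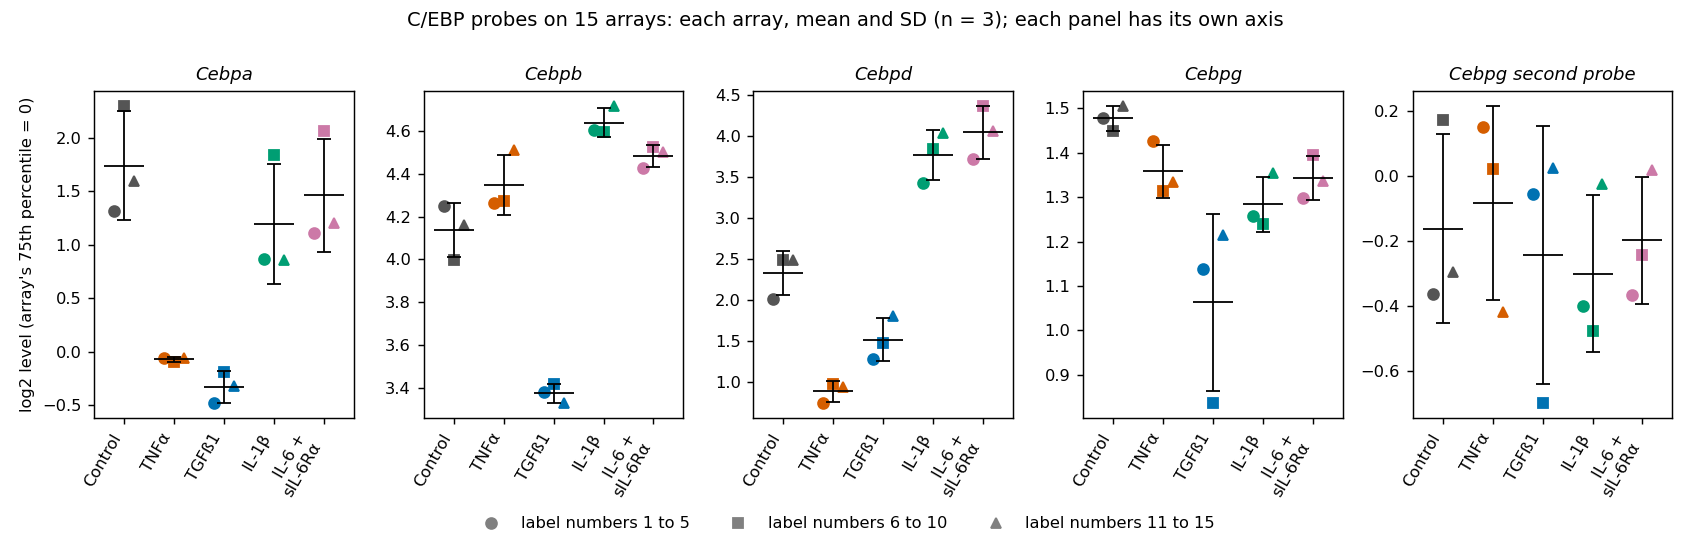
Level of each C/EBP probe on each of the 15 arrays (y axis: log2 brightness minus the 75th percentile of the array; each panel has its own scale) by group (x axis), with the mean and SD of 3 arrays as bars and the run of label numbers as the symbol. *Cebpa* is below 0 on all TNFα and TGFß1 arrays, and *Cebpd* has its 6 highest arrays in the IL-1β and IL-6 groups.

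**Figure D2:**
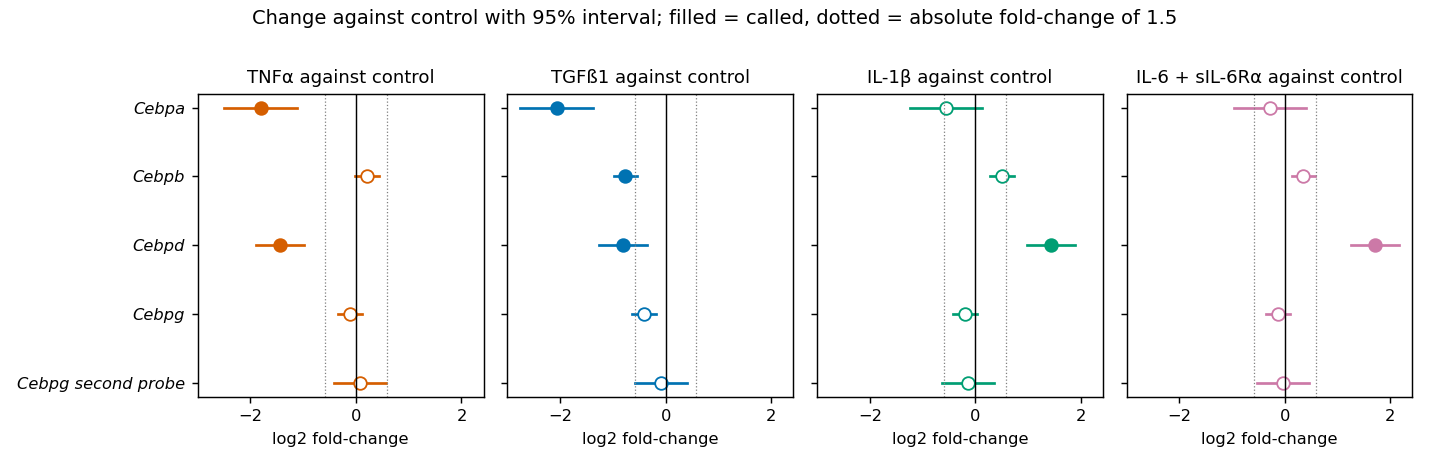
Log2 fold-change of each C/EBP probe against control (x axis) in the 4 treated groups, with the 95% interval of limma as a line, filled points for called probes and dotted lines at an absolute fold-change of 1.5. Filled points lie left of 0 with TNFα and TGFß1 and right of 0, for *Cebpd* alone, with IL-1β and IL-6.

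*Cebpa*, which drives and maintains the fat cell program and restrains division, had control levels of 1.32 on control 1, 2.30 on control 6 and 1.60 on control 11. With TNFα its levels were -0.06, -0.10 and -0.06 on TNFα 4, 9 and 14. With TGFß1 they were -0.48, -0.19 and -0.32 on TGFß1 2, 7 and 12. None of these 6 treated arrays reached the lowest control, and the TNFα arrays lay close together while the controls were spread. The mean fell from 1.74 ± 0.51 (SD, n = 3) to -0.07 ± 0.02 with TNFα, 3.51-fold lower (log2 fold-change -1.81, SE 0.32, q = 0.00264 with limma), and to -0.33 ± 0.15 with TGFß1, 4.2-fold lower (log2 fold-change -2.07, SE 0.32, q = 0.000626 with limma). Both differences were smaller on slide 1 (-1.51 and -1.65) than on slide 2 (-2.38 and -2.70), whose only control is the highest. The TNFα and TGFß1 levels differed by 0.26 on the log2 scale, with a 95% interval of -0.43 to 0.94 (q = 0.694 with limma). By fold-change *Cebpa* ranked number 289 among the 1764 probes called lower with TNFα and number 401 among the 3150 with TGFß1.

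With IL-1β, *Cebpa* had levels of 0.87, 1.84 and 0.86 on IL-1β 5, 10 and 15, and with IL-6 levels of 1.11, 2.07 and 1.20 on IL-6 3, 8 and 13. These overlapped the controls in both groups. The log2 fold-change against control was -0.55 (95% interval -1.23 to 0.14) with IL-1β and -0.28 (-0.96 to 0.41) with IL-6, and neither was called. In 4 of the 5 groups, the array with a number of 6 to 10 had the highest *Cebpa* level, and over all 5 groups these arrays were 0.39 above their group mean on average. The exception was TNFα, whose arrays hardly differed. The order of the mean levels was control, IL-6, IL-1β, TNFα, TGFß1. Of the neighbours in this order, IL-1β and TNFα alone differed by the call rule (log2 fold-change of TNFα against IL-1β -1.26, SE 0.32, q = 0.036 with limma). This call was lost without IL-1β 10 (log2 fold-change -0.94, q = 0.16), without any 1 of the TNFα arrays (q = 0.0877 to 0.11), and without control 11, TGFß1 2 or TGFß1 12, which lie outside the comparison (q = 0.0501 to 0.053). It was also lost with no filter on dim probes (q = 0.082) and with only the arrays of the groups compared (q = 0.0765).

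*Cebpd*, an early response gene of acute-phase and STAT3 signalling, was at 2.02, 2.48 and 2.48 on controls 1, 6 and 11. IL-6 arrays 3, 8 and 13 had 3.71, 4.36 and 4.06. IL-1β arrays 5, 10 and 15 had 3.42, 3.84 and 4.03. Every one of these 6 arrays was above every control by more than the whole range of the controls. The mean rose from 2.33 ± 0.27 (SD, n = 3) to 4.04 ± 0.32 with IL-6, 3.28-fold higher (log2 fold-change 1.71, SE 0.21, q = 0.00974 with limma), and to 3.76 ± 0.31 with IL-1β, 2.7-fold higher (log2 fold-change 1.43, SE 0.21, q = 0.0127 with limma). The *Cebpd* probe ranked number 6 by fold-change among the 20 probes called higher with IL-6, which carry 15 gene names, and number 34 among the 72 called higher with IL-1β.

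The size of the *Cebpd* rise changed little when arrays were left out, and its call changed. Without 1 array at a time, the log2 fold-change stayed between 1.56 and 1.88 with IL-6 and between 1.28 and 1.60 with IL-1β. The IL-6 call was lost without control 1 (q = 0.0533), control 6 (q = 0.0503) or IL-6 8 (q = 0.0575), and the IL-1β call without control 1 (q = 0.0677), IL-1β 10 (q = 0.0645) or IL-1β 15 (q = 0.0715). With only the 6 arrays of the groups compared, q was 0.275 and 0.197. With the slide and the runs as a replicate block both were called (q = 0.00106 with IL-6 and 0.000352 with IL-1β, limma). Within slides, the rise was 1.79 and 1.57 with IL-6 and 1.38 and 1.54 with IL-1β. The direct difference of IL-1β against IL-6 was -0.28 (95% interval -0.74 to 0.18, q = 1 with limma), and the arrays of these groups overlapped.

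TNFα and TGFß1 went with lower *Cebpd*. TNFα 4, 9 and 14 were at 0.74, 0.98 and 0.94, and TGFß1 2, 7 and 12 at 1.28, 1.47 and 1.80. The 3 groups did not overlap, with TNFα lowest, TGFß1 between and controls above. The log2 fold-change was -1.44 (SE 0.21, q = 0.000793 with limma) with TNFα, a mean of 0.89 ± 0.13 (SD, n = 3), and -0.81 (SE 0.21, q = 0.0147 with limma) with TGFß1, a mean of 1.52 ± 0.26. The TGFß1 call was lost without control 6, control 11 or TGFß1 2 (q = 0.0528 to 0.0659). By fold-change *Cebpd* ranked number 473 among the 1764 probes called lower with TNFα and number 2266 among the 3150 with TGFß1. Within slides 1 and 2 the differences were -1.31 and -1.63 with TNFα and -0.78 and -0.94 with TGFß1. TNFα against TGFß1 gave -0.63 (SE 0.21), not called (q = 0.0647 with limma), and called with the slide in the model (q = 0.0467). In all 5 groups the array numbered 1 to 5 was below its group mean, by 0.27 on average (mean deviation -0.27).

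TNFα and IL-1β, both known to act through NF-κB, stood on opposite sides of the control for *Cebpd*. The direct comparison gave a log2 fold-change of -2.87 (SE 0.21, q = 1.16e-05 with limma), 7.33-fold lower with TNFα, and against IL-6 it was 8.9-fold lower (log2 fold-change -3.15, q = 2.21e-06 with limma). The labelled time is not known to be the same for these groups, and its part in the difference was not tested. The order of the means was IL-6, IL-1β, control, TGFß1, TNFα. The pair at the top and the pair at the bottom of this order were not called, and each step between was.

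*Cebpb*, which is induced by inflammatory cytokines and whose protein exists as activating and inhibiting forms that a probe cannot tell apart, was at 4.25, 4.00 and 4.16 on controls 1, 6 and 11. With TGFß1 it was at 3.38, 3.42 and 3.33, below every array of every other group and nearly without spread. The mean fell from 4.14 ± 0.13 (SD, n = 3) to 3.37 ± 0.04, 1.7-fold lower (log2 fold-change -0.76, SE 0.10, q = 0.000263 with limma). The call held without each array in turn, with a log2 fold-change of -0.83 to -0.71. By fold-change *Cebpb* ranked number 2429 among the 3150 probes called lower with TGFß1.

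IL-1β 5, 10 and 15 had *Cebpb* levels of 4.61, 4.59 and 4.72, IL-6 3, 8 and 13 had 4.43, 4.52 and 4.50, and TNFα 4, 9 and 14 had 4.26, 4.27 and 4.51. All 9 arrays were above the highest control, TNFα 4 by the least, and none of the 3 groups was called. The log2 fold-change was 0.50 with IL-1β (95% interval 0.28 to 0.73, q = 0.091 with limma), 0.35 with IL-6 (0.13 to 0.57, q = 0.679) and 0.21 with TNFα (-0.01 to 0.44, q = 0.208). With the slide in the model the IL-1β value had a q-value of 0.0355 at a fold-change of 1.42. Among neighbours in the order IL-1β, IL-6, TNFα, control, TGFß1, control and TGFß1 alone differed by the call rule. TGFß1 was also lower than TNFα (1.97-fold, q = 3.66e-05), IL-1β (2.41-fold, q = 6.25e-06) and IL-6 (2.16-fold, q = 1.65e-05, all with limma).

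*Cebpg*, a broadly expressed partner of other C/EBPs and of ATF4, had the log2 fold-change smallest in size of the 4 genes in all 4 comparisons with control. Controls 1, 6 and 11 were at 1.48, 1.45 and 1.51, and TGFß1 2, 7 and 12 at 1.14, 0.84 and 1.21. TGFß1 arrays lay below all others, TGFß1 7 the furthest. The log2 fold-change was -0.41 (SE 0.11) with a q-value of 0.0131, but its size of 1.33-fold did not meet the fold-change criterion, where 25% of all probes passed the q-value alone. On slide 1, which holds TGFß1 7, the difference was -0.66, and on slide 2 it was -0.27. The second *Cebpg* probe had a log2 fold-change of -0.08 with TGFß1 (95% interval -0.57 to 0.41), an interval that holds the value of the first. With the slide in the model the second probe gave -0.24 (q = 0.0576 with limma), with the slide and the runs as a block -0.24 (q = 0.0394), and within slides 1 and 2 it gave -0.37 and -0.19, none of them past the fold-change criterion. With TNFα, IL-1β and IL-6 the first probe gave -0.12, -0.19 and -0.13, none of them called.

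Direct comparisons of cytokines gave 11 calls among the 4 genes in 6 comparisons, none of them in *Cebpg*. TNFα against TGFß1 had 1 of 4 genes called, *Cebpb*, where 6.8% of probes were called higher and 11.8% in either direction. TNFα had 2 of 4 called against IL-1β (3.17% of probes lower, 4.87% in either direction) and against IL-6 (5.21% of probes lower, 8.7% in either direction), *Cebpa* and *Cebpd* each time, lower with TNFα. TGFß1 had 3 of 4 called against IL-1β (10.8% of probes lower, 17% in either direction) and against IL-6 (10.1% of probes lower, 16.4% in either direction), *Cebpa*, *Cebpb* and *Cebpd*, lower with TGFß1. For *Cebpd* the TGFß1 level was 4.74-fold below IL-1β and 5.75-fold below IL-6, and for *Cebpa* 2.87-fold and 3.46-fold. IL-1β against IL-6 had 0 of 4 called by limma, also 0 at an unadjusted p under 0.05, where 0.416% of probes were called.

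The members were also set side by side within each array, as the difference of 2 log2 levels relative to its mean in controls. *Cebpd* over *Cebpa* was shifted by 1.98 ± 0.58 (SD, n = 3) with IL-1β, 1.99 ± 0.28 with IL-6, 1.26 ± 0.24 with TGFß1 and 0.37 ± 0.14 with TNFα. The shift was above 0 on all 12 treated arrays. The control arrays ran from -0.40 to 0.30, and TNFα 4, at 0.21, lay within that range. *Cebpb* over *Cebpa* was shifted most with TNFα, by 2.02 ± 0.13, against 1.31 ± 0.14 with TGFß1, 1.05 ± 0.60 with IL-1β and 0.63 ± 0.49 with IL-6. *Cebpd* over *Cebpb* moved in opposite directions, by -1.65 ± 0.14 with TNFα and by 1.37 ± 0.27 with IL-6. It stayed near the controls with TGFß1, at -0.05 ± 0.30. No test was made on these shifts, which show unequal change between probes.

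**Figure D3:**
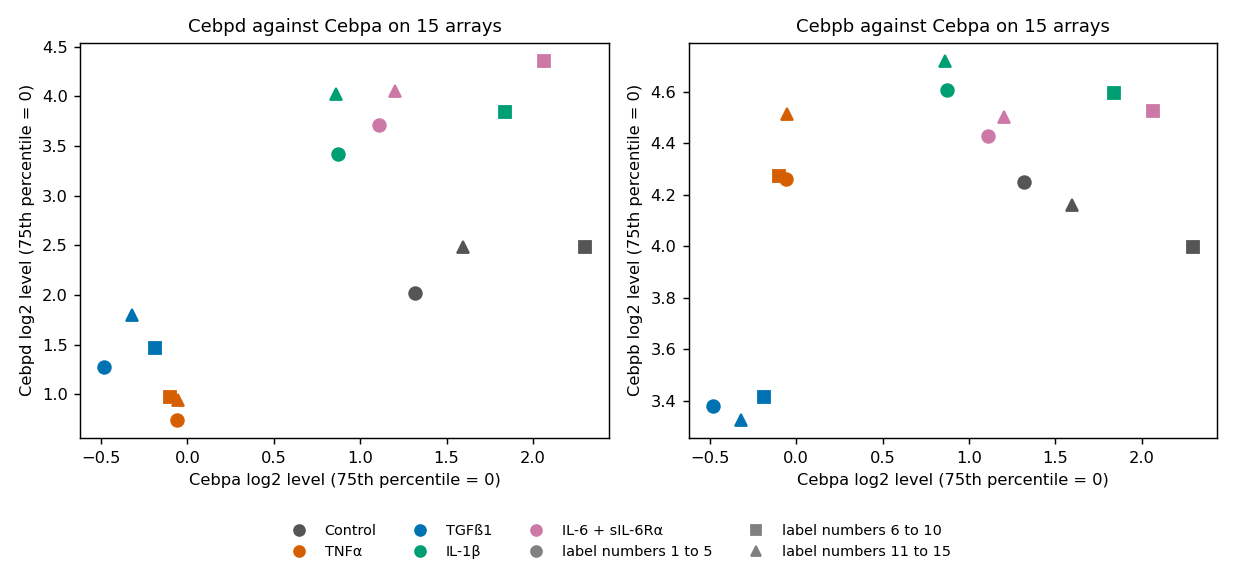
*Cebpd* (left) and *Cebpb* (right) levels against the *Cebpa* level on the same array (both axes log2 with the 75th percentile of the array at 0), coloured by group with the run of label numbers as the symbol. On the left, TNFα and TGFß1 arrays lie at the lower left and IL-1β and IL-6 arrays above the controls; on the right, TGFß1 arrays stand alone at the bottom.

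Over the 15 arrays, Pearson's r between members was 0.72 for *Cebpa* and *Cebpd*, 0.56 for *Cebpb* and *Cebpd*, 0.55 for *Cebpb* and *Cebpg*, 0.54 for *Cebpa* and *Cebpg*, 0.52 for *Cebpa* and *Cebpb* and 0.18 for *Cebpd* and *Cebpg*. The arrays fall into 5 groups and share runs and slides, so these values describe the pattern of the groups and were not tested. Among 13486 named genes, those most like *Cebpa* were *Cdkn2c* (r = 0.99), an inhibitor of cyclin-dependent kinases, *Gm38457*, *S100a1*, *Izumo4* and *Zfr2* (lowest r = 0.98). Those most like *Cebpb* were *Prl2c1* (r = 0.97), *Prl2c5*, *Il13ra2*, *Ppbp* and *Fosl2* (lowest r = 0.95). The *Prl2c* genes are near-identical copies, and which of them a probe measured is uncertain. *Fosl2* encodes an AP-1 subunit and *Il13ra2* a decoy receptor. For *Cebpd* the highest r was 0.90, with *Crocc2*, before *Osbpl9*, *Spry3* and *Sned1* (lowest r = 0.89), and for *Cebpg* 0.90, with *Acad8*, before *Prr5l*, *Plpp6*, *Hdgfl3* and *Gm26910* (lowest r = 0.85).

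Among adipocyte genes known as C/EBP targets, 8 of 9 tested were called lower with TNFα and 4 of 9 with TGFß1, and 0 were called by limma with IL-1β or IL-6, where 1 of them each had an unadjusted p under 0.05 and the median log2 fold-change was -0.14 and -0.06. Of all probes tested, 6.01% were called lower with TNFα and 10.7% with TGFß1. The list has 12 genes. With TNFα, 0 were called higher, with a median log2 fold-change of -2.86 beside 0.04 over all probes. With TGFß1, 0 were higher and 5 were not called, with a median of -0.95 beside 0.06 and a highest value of 0.40 in *Lep*, the hormone leptin. *Adipoq*, the fat cell hormone adiponectin, ran from -1.42 to -0.50 in controls and from -5.98 to -4.70 with TNFα, where 1 of 3 arrays was above background (log2 fold-change -4.44, SE 0.44, q = 4.76e-05 with limma). *Cidec*, a lipid droplet protein, was above background on no TNFα array and was at least 14.3-fold lower. *Lpl*, lipoprotein lipase, had the largest fall with TGFß1 (log2 fold-change -2.25, SE 0.43, q = 0.00281 with limma).

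The 5 adipocyte markers are all on that target list, so they are no separate evidence. Their mean level was -2.66 to -2.08 on control arrays, -5.50 to -5.08 with TNFα, -3.40 to -2.59 with TGFß1, -3.22 to -2.29 with IL-1β and -3.19 to -2.23 with IL-6. With TNFα, 4 of the 5 were called lower, and with TGFß1, 1 of the 5, where 6.01% and 10.7% of all probes were called lower. The count with TGFß1 was 0 without control 11, TGFß1 2 or TGFß1 7, and 2 without TGFß1 12 or IL-1β 5 and with the slide in the model. The model with the slide called 3181 of the 29334 probes tested lower with TGFß1. With TNFα these markers lay below the controls, as *Cebpa* did. With TGFß1, where the *Cebpa* mean was lowest, their mean level overlapped those of the control, IL-1β and IL-6 arrays. The part of these markers in the fall of *Cebpa* was not tested. None of the 5 was below background on all arrays, and *Lep* alone was above it on all 15. On the TNFα arrays *Plin1*, *Cidec* and *Retn* were above background on 0 and *Adipoq* on 1 of 3. The mean marker level with TNFα is therefore limited by background. With TGFß1, *Plin1* was above background on 1 of 3 arrays.

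Acute-phase and inflammatory genes known as C/EBP targets, 13 tested of 17, held calls in every comparison with control, and the genes not called numbered 7 with TNFα, 7 with IL-1β, 12 with IL-6 and 6 with TGFß1. With TNFα, where *Cebpd* was lower, 6 were called higher and 0 lower (median 1.20), led by *Saa3*, serum amyloid A3, at a log2 fold-change of 7.83 (SE 0.64, q = 1.04e-05 with limma). With IL-1β, where *Cebpd* was higher, 6 were higher and 0 lower (median 1.99), again led by *Saa3* (7.43, SE 0.64, q = 0.00024 with limma). That count fell to 3 without control 1 and to 4 without control 11 or IL-1β 15. With IL-6, where *Cebpd* was highest, 1 was called, higher (median 0.47): *Hp*, haptoglobin, at 3.66 (SE 0.53, q = 0.0263 with limma). This call was lost in 8 of the 15 fits that left out an array, among them those without control 1, control 6 or any IL-6 array. An unadjusted limma p under 0.05 was found for 6 of the 13 genes with IL-6 and 10 with IL-1β. It was found for 8 with TNFα and 8 with TGFß1. With TGFß1, 2 were higher and 5 lower (median -0.99), with the largest rise in *Hp* (2.21, SE 0.53, q = 0.00947 with limma) and the largest fall in *Ptx3*, pentraxin 3 (-5.43, SE 0.38, q = 2.55e-06 with limma), which was above background on 2 of 3 TGFß1 arrays. The lower count with TGFß1 was 3 without control 6, control 11 or TGFß1 2. Of all probes tested, 4.15% were called higher with TNFα, 0.245% with IL-1β and 0.0682% with IL-6. For TGFß1 these shares were 7.26% higher and 10.7% lower.

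**Figure D4:**
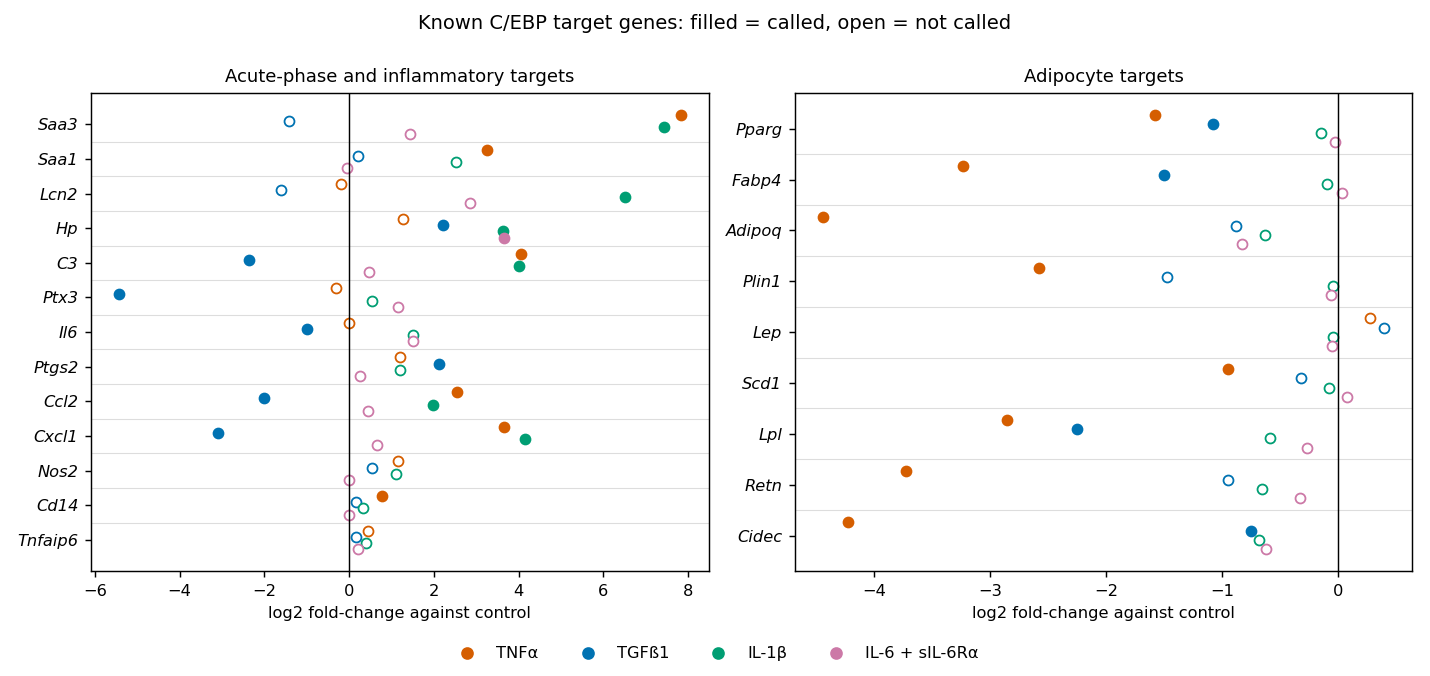
Log2 fold-change against control (x axis) of the tested acute-phase and inflammatory (left) and adipocyte (right) genes known as C/EBP targets, 1 row per gene, coloured by cytokine, filled where called. On the right, 8 TNFα points and 4 TGFß1 points are filled, all below 0; on the left, *Saa3* has the largest values, 7.83 with TNFα and 7.43 with IL-1β.

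Of the factors that act on C/EBP genes, 12 were tested of 14. *Nfkbiz*, a nuclear partner of NF-κB, was the 1 factor called with IL-1β (log2 fold-change 1.49, SE 0.14, q = 0.000517 with limma) and the 1 called with IL-6 (1.35, SE 0.14, q = 0.00396 with limma), the groups in which *Cebpd* was higher. Its levels were -0.61 to -0.31 in controls, 0.95 to 1.07 with IL-1β and 0.72 to 1.01 with IL-6. With TNFα, 1 was called higher, the NF-κB subunit *Nfkb1* (1.10, SE 0.19, q = 0.00254 with limma), and 3 lower, led by *Stat3* (-1.01, SE 0.24, q = 0.0159 with limma). The 3 lower calls became 0 without control 11 or TNFα 4, and the higher count was 2 without control 1, control 11, TNFα 4 or TNFα 9 and with the slide in the model, which also gave 2 with IL-1β. With TGFß1, 1 was higher, *Egr2* (1.18, SE 0.36, q = 0.0319 with limma), lost without control 6, TGFß1 2 or TGFß1 12, and 5 were lower, led by *Id2*, an inhibitor of helix-loop-helix factors (-2.32, SE 0.29, q = 0.000152 with limma). The lower count with TGFß1 was 2 without control 11 or TGFß1 12 and 3 without control 1 or TGFß1 2. The list's median was 0.07 with TNFα, -0.07 with TGFß1 and 0.01 with IL-1β and IL-6. Among all probes tested, 4.15% were called higher and 6.01% lower with TNFα, and 7.26% and 10.7% with TGFß1. The share called higher was 0.245% with IL-1β and 0.0682% with IL-6.

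Genes that regulate C/EBP proteins, 9 of 9 tested, had 0 called higher and 2 lower with TNFα, led by *Trib2*, a pseudokinase that targets C/EBPα protein for degradation (log2 fold-change -1.66, SE 0.36, q = 0.00959 with limma), and 0 called in the other comparisons with control, where 3 had an unadjusted p under 0.05 with TGFß1 and 0 with IL-1β or IL-6. The lower count with TNFα was 1 without control 1, TNFα 4 or TNFα 9, and 3 without control 6 or TNFα 14, and *Trib2* was not called without TNFα 4. With TGFß1, 1 was called higher without control 1, control 11 or TGFß1 7. Among bZIP partners and stress genes, 9 tested of 11, 2 were called higher with TNFα, *Atf3* and *Batf2*, the latter at 2.01 (SE 0.52, q = 0.0246 with limma). In the other comparisons with control 0 were called, where 4 had an unadjusted p under 0.05 with TGFß1 and 0 with IL-1β or IL-6. With TGFß1, 3 were called higher without control 11 and 1 without control 1 or TGFß1 7. *Atf3* was called in 3 and *Batf2* in 11 of the 15 fits that left out an array, and neither without control 1, TNFα 9 or TNFα 14. Of the other C/EBP-related genes, *Cebpe*, the granulocyte C/EBP, was above background on 0 arrays, and *Ddit3* (CHOP) and *Cebpz* were tested and not called in any comparison with control. With TNFα and with TGFß1, 1 of the 2 had an unadjusted p under 0.05, and with IL-1β and IL-6, 0. *Cebpz* with TGFß1 had a log2 fold-change of 0.58 (SE 0.17, q = 0.0237 with limma), just under the fold-change criterion, and was called with the slide in the model (0.65, q = 0.00652). Without control 1, control 11 or TGFß1 12, 1 of the 2 genes was called higher with TGFß1. With the slide in the model, 1 regulator of C/EBP proteins and 1 gene of the bZIP list were called higher with TGFß1. That model called 2728 of the 29334 probes tested higher with TGFß1. Among all probes tested without the slide in the model, 4.15% were called higher and 6.01% lower with TNFα, and 7.26% and 10.7% with TGFß1.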

How the data were processed

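The authors hybridized Cyanine 3-labelled RNA to 15 1-color arrays of the whole mouse genome and extracted spots with Agilent Feature Extraction 10.7.3.1 (per the submitters' processing notes). The deposited values used here are processed spot intensity values after the software's background subtraction, not normalized between arrays. A series-wide table was also deposited, and its values did not differ from those of the scanner files (largest difference 0). No table column was left unassigned. Of 62976 spots per array, 59305 were not controls. Spots marked as uneven or as outliers were left out, spots of the same probe were averaged on the log2 scale, and each array's 75th percentile over spots was subtracted. The processing by the software replaces low signals by a surrogate, which limits values near background.

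Probes above background (in at least 0.5 of their spots) on every array of at least 1 group were tested with limma 3.58.1 in R 4.3.3 with the package data.table, version 1.17.8, in 1 fit of all 15 arrays, using two-sided moderated tests adjusted by the method of Benjamini and Hochberg. The method was tested on simulated data. The number of arrays limits the precision. RefSeq identifiers were named by a table of GRCm38.p6, which matched 33767 probes. The array design is older than this assembly, so no probe positions are given. Named from each list are the called genes with the largest rise and fall against control, and for each member the 5 genes with the highest r, of which 1 is not reported here. For a gene with several probes, the brightest over all arrays was used. The members, lists and tests were chosen with earlier results of these data known. The TATA box search was added after the promoters were seen, and *Atf3*, *Ddit3*, *Cebpz*, *Cidec*, *Lep* and *Krt8* were named outside the rule after their values were seen. Alternatives were the background correction, scaling, filter, slide, replicate block, arrays in the fit, variance moderation and arrays left out. Normexp (offset 50) used the median spot signal, a choice made after seeing the data, as was a 75th percentile over probes.

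Label numbers are not shared between groups. Runs of 5 numbers were checked: with the slide removed, 30 of 30 pairs of arrays of the same run had deviations with r over 0.1 (0.114 to 0.671), against 2 of 60 pairs of different runs, and without removing the slide 12 of 30 and 28 of 60. The labels do not say that a run is an experiment. Figures were drawn with matplotlib 3.10.9 in Python 3.11.15.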

Additional observations from a re-analysis of the deposited data

How the results depend on the processing

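The number of C/EBP genes called against control was 2 with TNFα, 3 with TGFß1, 1 with IL-1β and 1 with IL-6. With the slide, or with the slide and the runs as a replicate block, these counts stayed 2, 3, 1 and 1. With only the arrays of the groups compared, the counts with IL-1β and IL-6 were 0. When each array was left out in turn, the count was 2 in all fits with TNFα, 2 to 3 with TGFß1, 0 to 1 with IL-1β and 0 to 1 with IL-6, and 10 to 11 for the comparisons between cytokines. The replicate block or the slide added the *Cebpd* call of TNFα against TGFß1 (-0.63 in each, q = 0.00160 with slide and block), and a trend with robust moderation did too (q = 0.0469). The *Cebpa* call of TNFα against IL-1β was lost with no filter on dim probes (q = 0.082) and with only the arrays of the groups compared (q = 0.0765).

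Values that changed sign were near 0 and not called. For *Cebpg*, TNFα against IL-6 turned to -0.034 with normexp, -0.0067 with the percentile over detected probes, -0.014 with the slide and -0.010 with the replicate block, and ran from -0.019 to 0.041 with arrays left out. For the second *Cebpg* probe, the slide and the replicate block turned TNFα against control to -0.081 and -0.082, TNFα against IL-6 to -0.046 (both) and TGFß1 against IL-1β to -0.10 (both), and the percentile over detected probes turned the last to -0.035. Leaving out arrays gave this probe -0.037 to 0.25 for TNFα, -0.21 to 0.15 for TGFß1, -0.28 to 0.028 for IL-1β and -0.14 to 0.13 for IL-6 against control. Between cytokines it gave -0.068 to 0.33 (TNFα against TGFß1), -0.0013 to 0.28 (TNFα against IL-6), -0.076 to 0.29 (TGFß1 against IL-1β), -0.18 to 0.18 (TGFß1 against IL-6) and -0.24 to 0.0052 (IL-1β against IL-6). *Cebpa* ran from -0.58 to 0.0023 for IL-6 against control and from -0.59 to 0.032 for IL-1β against IL-6.

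Every group has 3 arrays, which limits all q-values, and each group has a single array on 1 of the 2 slides. Low signals are replaced by a surrogate, so that fold-changes of probes near background are limited in size.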
